A study of Caenorhabditis elegans with 33 samples.

Results

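The endoplasmic reticulum (ER) stress genes described here are 8 genes of *Caenorhabditis elegans*: hsp-3, hsp-4, ire-1, xbp-1, pek-1, atf-6, crt-1 and sel-1. They were chosen by name, as sensors, transcription factors and targets of the unfolded protein response, and matched by symbol among the 18811 gene symbols of each deposited table. All 8 were present in all 33 libraries and all 8 passed the filter on low counts, among 14696 genes tested. RNA came from the whole body of synchronized adults of the wild type strain N2, which all groups share. Worms were fed 1 of 10 mutants of *Escherichia coli*, labelled crl, iaaA, purH, torY, yccU, ycdC, ycgJ, yghZ, yjgU and ypdF, and the controls were fed BW25113, a laboratory strain of the same species. Each of the 11 diets had 3 libraries. In the yjgU group the treatment labels read yigU, so the identity of that mutant is uncertain. The adult age, the number of animals per library and the origin of the replicates are left unstated by the sources used here. The p-values therefore reflect only how far the libraries at hand spread, which may be technical.

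The ER is where secreted and membrane proteins are folded. When unfolded proteins build up there, sensor proteins in the ER membrane start the unfolded protein response, which raises chaperones and degradation factors and slows translation. In the worm this response is best known from the intestine, which makes large amounts of yolk protein, and one of its branches works through the splicing of a messenger RNA, which gene-level counts do not show.

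Totals were 20459806 to 22666691 expected counts per library, with 15298 to 16906 genes above 0. The members held between 46 and 26591 expected counts in any library. Values are given as CPM, counts per 1000000 of a library size scaled by TMM, a factor that aligns most genes between libraries and ran from 0.661 to 1.90. The highest factor belonged to purH replicate 1, which correlated with its own replicates at r = 0.821 and 0.869 across genes, against a median of 0.956 over 33 replicate pairs. A gene is called when its adjusted p in edgeR's quasi-likelihood test with Benjamini-Hochberg adjustment over all genes tested is under 0.05. In whole animals, fewer cells of a type and less RNA per cell cannot be told apart.

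No member was called in any mutant. Over the 8 genes and 10 mutants, 0 of 80 tests passed by edgeR's quasi-likelihood test, with adjusted p from 0.0522 to 1.00, and 4 of 80 had an unadjusted p under 0.05. DESeq2 called 1 of the 80, ire-1 in torY, and the share of all genes that it called there is not given here. The log2 fold changes ran from -1.02 to 0.35, with 17 positive and 63 negative, and their 95% intervals reached from -1.75 to 1.27. Among all 14696 genes, torY had 14.9% called (9.66% higher and 5.26% lower) and yccU had 2.62% (2.5% higher and 0.122% lower), while the other 8 mutants had 0. The libraries of a mutant all lay below the 3 BW25113 libraries in 12 of the 80 cases, 5 of them in torY and 2 in yccU, and never all above. Over all genes, libraries lay wholly below BW25113 for 21.7% in torY, 15.2% in yccU, 10.2% in yjgU, 5.82% in yghZ, 5.59% in purH, 3.48% in ycgJ, 2.82% in crl, 2.25% in iaaA, 2.03% in ycdC and 1.33% in ypdF. They lay wholly above it for 25.5% in torY, 19.2% in yccU, 15.1% in yjgU, 9.05% in yghZ, 5.93% in purH and in ycdC, 5.74% in ycgJ, 5.07% in crl, 2.47% in iaaA and 1.63% in ypdF. The 4 unadjusted p under 0.05 were 3 of 8 members in torY, where 36.5% of genes had one, and 1 of 8 in yccU, where 26.9% did. That share was 7.17% in purH, 6.71% in yghZ, 6.49% in yjgU, 4.74% in ycgJ, 4.64% in ycdC, 1.32% in ypdF, 1.12% in iaaA and 1.02% in crl. All 10 comparisons share the same 3 BW25113 libraries. With library totals in place of TMM, the median log2 fold change of all genes lay between 0.03 and 0.90 across the mutants, against -0.08 to 0.18 with TMM, and 35 of the 80 member values changed sign. As counts per 1000000 of the library total (the total-count scale), an alternative added after seeing the data, 1 of the 12 separated cases was still separated, hsp-4 in torY, where 11.4% of all genes lay wholly below BW25113. The other 11 separations of a member's CPM therefore hold on the TMM scale only.

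**Figure D1:**
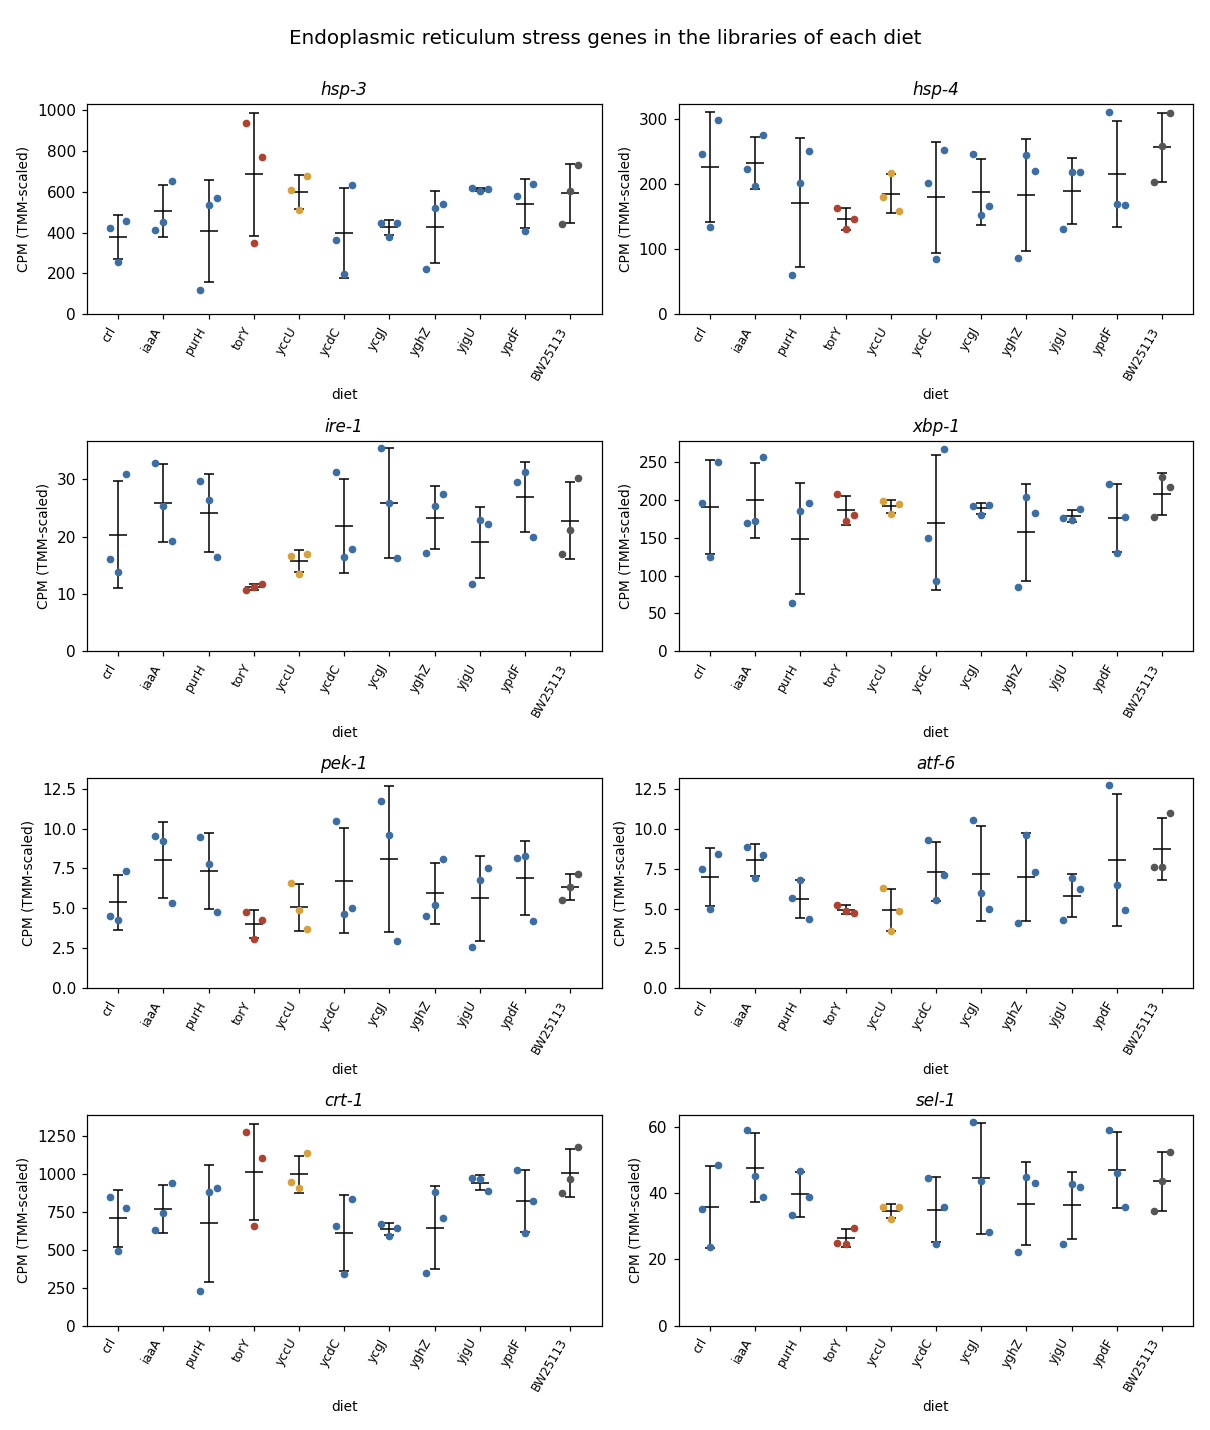
CPM of the 8 ER stress genes in each of the 33 libraries, by diet, with torY in red, yccU in gold, the other mutants in blue and BW25113 in grey. Points are libraries and bars are the mean ± SD of 3 libraries. The 3 torY libraries of ire-1 sit between 10.7 and 11.8 CPM, below the 3 BW25113 libraries at 17.0 to 30.1 CPM.

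Levels can be set side by side between genes only per length, as TPM. On that scale, over 33 libraries, crt-1 was the most abundant member with a median of 549 TPM, followed by hsp-3 with 192, xbp-1 with 123 and hsp-4 with 81.0 TPM. The sel-1 transcript had a median of 12.8 TPM. The 3 sensor genes were the least abundant, ire-1 at 5.26, atf-6 at 2.40 and pek-1 at 1.46 TPM. In BW25113 the means were 566 ± 178 TPM for crt-1 and 1.32 ± 0.361 TPM for pek-1 (SD, n = 3).

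Sensors come first. The gene ire-1 (chromosome II, 8112243 to 8124910, minus strand, build WBcel235) encodes an ER membrane kinase and endonuclease that splices the xbp-1 messenger. It had 10.7, 11.21 and 11.8 CPM in torY, 16.7, 13.5 and 16.9 CPM in yccU, and 17.0, 21.1 and 30.1 CPM in BW25113. With TMM the torY libraries were the 3 lowest of all 33, and neither mutant overlapped BW25113. On the total-count scale ire-1 had 7.07, 13.04 and 12.1 in torY and 17.1, 10.8 and 17.8 in yccU, against 13.00, 15.4 and 25.9 in BW25113. Both mutants overlapped BW25113 there, and yjgU replicate 1 (9.38), yccU replicate 2 and purH replicate 3 (11.3) were lower than torY replicates 2 and 3. In torY the mean was 11.23 ± 0.541 CPM against 22.7 ± 6.73 CPM in BW25113 (SD, n = 3 each). Its log2 fold change was -1.02 (SE 0.357, 95% interval -1.75 to -0.29). This had an unadjusted p of 0.00822 and an adjusted p of 0.0522 by edgeR's quasi-likelihood test, just outside the threshold.

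The position of ire-1 at the threshold depended on the analysis. Its adjusted p in torY was 0.0490 with RLE size factors, 0.0287 with DESeq2 and 0.0435 when the 6 libraries were fitted alone. It was 0.344 with library totals (log2 fold change -0.76), 0.427 with limma on log2(TPM + 1) and 0.194 with the molting marker level as a covariate. Leaving out 1 library of either group gave adjusted p from 0.0605, without BW25113 replicate 1, to 0.185, without BW25113 replicate 3. In yccU, the log2 fold change of ire-1 was -0.53 (SE 0.354), with an adjusted p of 0.319 by the same test.

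Across the diets, mean ire-1 levels were 26.9 ± 6.14 CPM in ypdF, 25.8 ± 9.57 in ycgJ, 25.8 ± 6.83 in iaaA, 24.15 ± 6.83 in purH and 23.3 ± 5.47 in yghZ. They were 21.9 ± 8.20 CPM in ycdC, 20.3 ± 9.30 in crl, 19.0 ± 6.21 in yjgU, 15.7 ± 1.92 in yccU and 11.23 ± 0.541 in torY, and BW25113 at 22.7 ± 6.73 stood sixth from the top. Of the 10 steps between neighbours in this order, only that from yccU to torY was larger than the larger SD of the pair. An F test of differences among the 10 mutants, which does not rest on BW25113, gave ire-1 an unadjusted p of 0.0521 and an adjusted p of 0.245 by edgeR, where 2.56% of all genes were called. In that test 0 of 8 members had an unadjusted p under 0.05, against 20.8% of all genes.

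The gene pek-1 (X, 11410176 to 11414887, minus strand) encodes the ER kinase that phosphorylates translation factor eIF2alpha. It had 4.77, 3.09 and 4.25 CPM in torY and 5.54, 6.37 and 7.13 CPM in BW25113. All torY values lay below all BW25113 values with TMM, and the log2 fold change was -0.66 (SE 0.454, adjusted p = 0.286 by edgeR's quasi-likelihood test). Its spread within a diet was wide: the ycgJ libraries had 11.7, 9.56 and 2.95 CPM, which includes the highest of all 33 libraries, and yjgU replicate 1 was the lowest at 2.61 CPM. On the total-count scale the highest was instead purH replicate 1, at 17.99. Its 5 positive and 5 negative log2 fold changes ran from -0.66 in torY to 0.35 in ycgJ.

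The gene atf-6 (X, 12480948 to 12484904, plus strand) encodes the membrane-tethered transcription factor of the response. It had 5.25, 4.83 and 4.73 CPM in torY, 6.26, 3.61 and 4.83 CPM in yccU, and 7.58, 7.60 and 11.0 CPM in BW25113. Neither mutant overlapped BW25113 with TMM. The means were 4.94 ± 0.274 CPM in torY and 4.90 ± 1.33 CPM in yccU, against 8.71 ± 1.94 CPM in BW25113 (SD, n = 3 each). The log2 fold changes were -0.82 (SE 0.366, adjusted p = 0.108) and -0.83 (SE 0.365, adjusted p = 0.150) by edgeR's quasi-likelihood test.

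With TMM the BW25113 mean of atf-6 was the highest of the 11 diets, and all 10 log2 fold changes were negative, from -0.83 to -0.11. On the total-count scale the BW25113 mean stood 8th from the highest. With TMM the purH libraries, at 5.64, 6.76 and 4.36 CPM, and the yjgU libraries, at 4.31, 6.91 and 6.21 CPM, also lay below every BW25113 library. Both mutants overlapped BW25113 on the total-count scale. Their adjusted p values were 0.572 and 0.750 by edgeR's quasi-likelihood test. With 10 comparisons against the same 3 controls, a shared direction is not 10 separate observations.

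The spliced messenger of the transcription factor gene xbp-1 (III, 4193809 to 4195358, plus strand) carries the IRE-1 signal. In CPM over the 33 libraries xbp-1 spanned 4.18-fold, more than sel-1, ire-1 and atf-6 and less than the other members. It had 208, 172 and 180 CPM in torY, 198, 182 and 195 CPM in yccU, and 177, 230 and 218 CPM in BW25113, and the groups overlapped. The log2 fold change was -0.16 in torY (SE 0.379, adjusted p = 0.773 by edgeR) and 0.09 there with library totals. Over the mutants it ran from -0.49 in purH to -0.06 in iaaA, and the purH value was -0.08 without purH replicate 1. In no mutant were the libraries separated from BW25113 under either scaling. These counts are of the gene as a whole and say nothing of how much of the messenger was spliced.

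**Figure D2:**
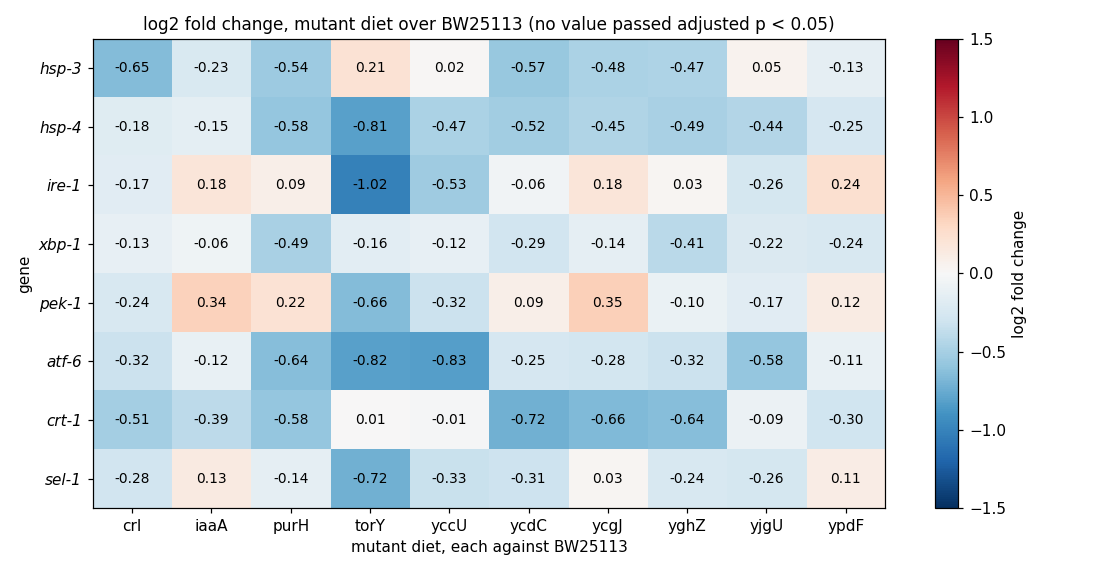
Heat map of the log2 fold change of each ER stress gene (rows of cells) in each mutant against BW25113 (columns of cells) from edgeR's quasi-likelihood fit, blue where lower and red where higher in the mutant, with the value written in each cell. Values run from -1.02 (ire-1 in torY) to 0.35 (pek-1 in ycgJ), and no adjusted p is under 0.05.

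The worm has a pair of genes for BiP, the main Hsp70 chaperone of the ER lumen. hsp-4 (II, 7350112 to 7352645, minus strand) is the one known as a strongly inducible reporter of the response, and hsp-3 (X, 6089028 to 6092124, minus strand) is the more constitutive one. The coding sequences are similar, and how the authors handled shared reads is unstated in the sources used here. The split of counts between hsp-3 and hsp-4 is thus uncertain.

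hsp-4 had 163, 130 and 146 CPM in torY, 179, 217 and 158 CPM in yccU, and 202, 258 and 308 CPM in BW25113. The torY libraries lay below all BW25113 libraries, and those of yccU overlapped them. Means were 146 ± 16.3 CPM in torY, against 256 ± 52.7 CPM in BW25113 (SD, n = 3 each). Its log2 fold change was -0.81 (SE 0.448, adjusted p = 0.187 by edgeR's quasi-likelihood test). With TMM the BW25113 mean was the highest of the 11 diets and the torY mean the lowest, and all 10 log2 fold changes were negative, from -0.81 to -0.15. With library totals the torY fold change was -0.58, and the torY mean was again the lowest, while BW25113 stood 6th from the highest. hsp-4 then had 107, 151 and 149 on the total-count scale in torY, against 155, 188 and 265 in BW25113, with no overlap.

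hsp-3 had 939, 351 and 770 CPM in torY, 611, 513 and 678 CPM in yccU, and 443, 602 and 732 CPM in BW25113. With TMM the torY libraries spanned the whole range of BW25113 and beyond on both sides. Their mean was 686 ± 303 CPM against 593 ± 145 CPM in BW25113 (SD, n = 3 each). Its log2 fold change was 0.21 (SE 0.459, adjusted p = 0.748 by edgeR). On the total-count scale hsp-3 had 620, 408 and 788 in torY, against 340, 440 and 630 in BW25113. The groups overlapped there, with no torY library below the lowest of BW25113, and the means were 605 and 470. The lowest value in all 33 libraries was 119 CPM in purH replicate 1, whose replicates had 536 and 568 CPM.

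Because both BiP genes are read in the same library, their ratio does not depend on the scaling of libraries. In torY, hsp-4 stood at 17.3%, 37.1% and 18.9% of hsp-3, against 45.7%, 42.8% and 42.03% in BW25113. The mean log2 ratio was -2.12 ± 0.600 for torY, against -1.202 ± 0.0634 for BW25113 (SD, n = 3 each), a difference of -0.92. All 3 torY libraries lay below BW25113, and the two-sided exact permutation test gave p = 0.1, the smallest that 3 against 3 libraries allow (0.333 adjusted over 10 comparisons). How often the ratio of other gene pairs separates in this way was not computed. Among single genes, 21.7% lay wholly below and 25.5% wholly above BW25113 in torY. These shares were 10.2% and 15.1% in yjgU, and 2.82% and 5.07% in crl.

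The ratio was also below BW25113 in every yjgU library, at 21.0%, 35.9% and 35.5% (difference in log2 -0.54, exact permutation p = 0.1). It was above BW25113 in every crl library, at 58.5%, 52.0% and 65.0% (difference 0.42, exact permutation p = 0.1). In yccU it was 29.4%, 42.3% and 23.3%, overlapping BW25113, with a difference of -0.50 and an exact permutation p of 0.2. The other 6 mutants had differences between -0.17 and 0.09, with exact permutation p from 0.5 to 1.0. The difference in torY ranged from -1.26 to -0.72 when 1 library was left out.

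**Figure D3:**
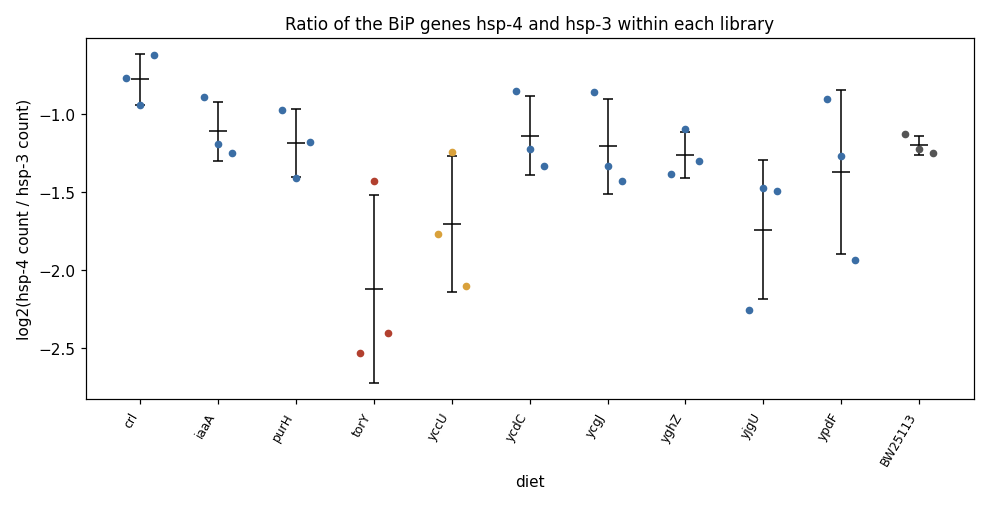
Log2 ratio of the hsp-4 count to the hsp-3 count in each library, by diet, with points for libraries and bars for the mean ± SD of 3 libraries, in the colours of the CPM plot. The 3 torY libraries lie between -2.53 and -1.43 and the 3 crl libraries between -0.94 and -0.62, on either side of the BW25113 libraries at -1.25 to -1.13.

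The gene crt-1 (V, 6098992 to 6100542, minus strand) encodes calreticulin, a calcium-binding chaperone of glycoproteins. It had 1279, 659 and 1103 CPM in torY, 948, 910 and 1136 CPM in yccU, and 873, 966 and 1180 CPM in BW25113. The groups overlapped, and the log2 fold changes were 0.01 in torY (SE 0.410, adjusted p = 0.988 by edgeR) and -0.01 in yccU. With TMM, separation from BW25113 was found in other mutants: crl at 850, 494 and 778 CPM, ycdC at 654, 340 and 838 CPM, and ycgJ at 673, 592 and 647 CPM. In these 3 mutants the log2 fold changes were -0.51, -0.72 and -0.66, and the adjusted p values were 0.999, 0.744 and 0.835 by edgeR's quasi-likelihood test. With library totals the log2 fold changes for crl, ycdC and ycgJ were -0.19, -0.25 and -0.14. On the total-count scale crt-1 had 706, 594 and 795 in crl, 815, 539 and 661 in ycdC, and 844, 823 and 509 in ycgJ, against 669, 706 and 1015 in BW25113, so that all 3 mutants overlapped BW25113.

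The gene sel-1 (V, 12560732 to 12563383, plus strand) encodes an adaptor of the ubiquitin ligase complex that clears misfolded proteins from the ER. It had 24.9, 24.7 and 29.7 CPM in torY, 35.8, 32.1 and 35.97 CPM in yccU, and 34.7, 43.7 and 52.4 CPM in BW25113. With TMM all torY values lay below BW25113, while yccU overlapped it. The torY mean was 26.4 ± 2.80 CPM against 43.6 ± 8.86 CPM in BW25113 (SD, n = 3 each). Its log2 fold change was -0.72 (SE 0.325, adjusted p = 0.110 by edgeR's quasi-likelihood test). As with ire-1, the step from yccU to torY was the one neighbouring step in the order of diet means that was larger than the larger SD. In the other 8 mutants sel-1 ran from -0.31 in ycdC to 0.13 in iaaA.

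In torY the 8 members therefore divided by value: ire-1, atf-6, hsp-4, sel-1 and pek-1 had log2 fold changes of -1.02 to -0.66 and no overlap with BW25113, while hsp-3, crt-1 and xbp-1 lay between -0.16 and 0.21 and overlapped it. Of those 5, only hsp-4 had no overlap on the total-count scale. There the highest torY and the lowest BW25113 library had 13.04 and 13.00 for ire-1, 5.62 and 5.55 for atf-6, 30.4 and 26.6 for sel-1, and 4.35 and 4.24 for pek-1. The median of the 8 was -0.69, against 0.01 over all genes tested. In yccU the median of the 8 was -0.33 against -0.01 over all genes, with 7 of 8 negative. With library totals these medians were -0.45 in torY and -0.05 in yccU, against 0.28 over all genes in each. Leaving out 1 library gave medians between -0.81 and -0.57 for torY and between -0.45 and -0.21 for yccU.

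Over the 33 libraries the members moved in blocks that were not sharply separated. Pearson correlations of log2 CPM were computed for 28 pairs of members and for 40 pairs of a member with a library property, 68 relations in all, with 100000 permutations each. hsp-3 and crt-1 had r = 0.963 and rho = 0.881, and r = 0.926 without the 2 libraries farthest from the median of hsp-3, purH replicate 1 and ycdC replicate 2. ire-1 had r = 0.857 with sel-1 (rho = 0.859, 0.830 without the 2 farthest libraries) and r = 0.857 with pek-1 (rho = 0.863, 0.865 without them). hsp-4 and xbp-1 had r = 0.864 and rho = 0.732 (0.750 without the 2 farthest). The permutation p of each of these r and rho values was 1e-05, the smallest the permutations can give, and the adjusted values were 4e-05 and 6.8e-05. xbp-1 had nearly the same r with hsp-3 (0.854, rho = 0.649) and with crt-1 (0.861, rho = 0.630) as with hsp-4. With TMM, r thus did not set hsp-4 and xbp-1 apart from hsp-3 and crt-1. With library totals xbp-1 had r = 0.572 with hsp-3 and 0.609 with crt-1, below 0.777 with hsp-4.

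Between ire-1 and the genes of the other blocks r was lower and moved with the scaling. With TMM ire-1 had r = -0.17 with hsp-3 (permutation p = 0.352, adjusted 0.435), -0.20 with crt-1 (permutation p = 0.271) and -0.02 with xbp-1 (permutation p = 0.910), which with library totals was 0.404. With hsp-4 it had r = 0.329 (permutation p = 0.0614, adjusted 0.104) and rho = 0.426 (permutation p = 0.0143, adjusted 0.0319), and r was 0.533 without the 2 farthest libraries and 0.561 with library totals. xbp-1 had r = 0.407 with sel-1 (permutation p = 0.0177, adjusted 0.0335, and 0.337 without the 2 farthest libraries) and 0.364 with atf-6 (permutation p = 0.0355, adjusted 0.0620). The rank correlations differed from these. With sel-1 rho was 0.317 (permutation p = 0.0735, adjusted 0.125), and with atf-6 rho was 0.397 (permutation p = 0.0226, adjusted 0.0416). With library totals xbp-1 had r = 0.562 with sel-1, 0.533 with atf-6 and 0.386 with pek-1, so the separation of xbp-1 from these genes depended on the scaling. atf-6 had r = 0.790 with sel-1 and 0.728 with ire-1. hsp-4 had r = 0.688 with sel-1 (rho = 0.682), 0.619 with atf-6 (rho = 0.721) and 0.262 with pek-1 (permutation p = 0.143, rho = 0.357), and with library totals 0.701, 0.660 and 0.528. It had r = 0.724 with crt-1 (rho = 0.401, 0.488 without the 2 farthest libraries) and 0.686 with hsp-3 (rho = 0.366, 0.416 without them), and with library totals 0.469 and 0.378. Within diets, after subtracting each diet's mean, the values were 0.969 for hsp-3 with crt-1, 0.850 for ire-1 with sel-1, 0.864 for ire-1 with pek-1 and 0.908 for hsp-4 with xbp-1. With library totals in place of TMM they were 0.900, 0.957, 0.932 and 0.777 over all libraries. Libraries share diets in threes, and CPM values share a library size.

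**Figure D4:**
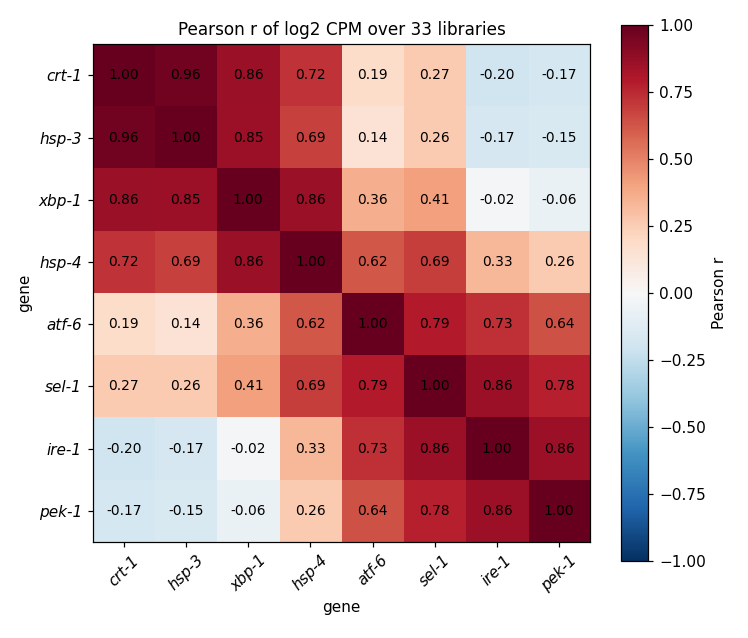
Pearson r of log2 CPM over 33 libraries between each pair of ER stress genes. hsp-3 and crt-1 have the highest value, 0.963, and ire-1, pek-1, sel-1 and atf-6 form a second group, with r between 0.636 and 0.857.

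Properties of the libraries moved with these blocks, and their part in the results was not tested beyond the covariate fits given here. For these correlations each marker list was scored as the mean log2 CPM of its genes. hsp-4 had r = 0.904 (rho = 0.869, 0.831 without the 2 farthest libraries) with the vitellogenins, the yolk protein genes of the adult intestine. It had r = 0.865 (rho = 0.847, 0.806 without the 2 farthest) with the oocyte and eggshell markers. hsp-3 had r = 0.921 with the body wall muscle markers (rho = 0.830, 0.842 without the 2 farthest). The permutation p of each r and rho was 1e-05, adjusted 4e-05 and 6.8e-05 over the 68 relations. The permutations shuffled all 33 libraries freely, so these p take no account of the diets or of the TMM factor that both values share. With library totals these 3 correlations were 0.715, 0.742 and 0.841. With TMM other members shared these relations in part. With the muscle markers crt-1 had r = 0.874, xbp-1 0.829 and hsp-4 0.625, though rho was 0.682, 0.458 and 0.112. With library totals r was 0.726, 0.552 and 0.296 for these 3 genes. With the vitellogenins xbp-1 had r = 0.788, crt-1 0.686 and hsp-3 0.682, with rho of 0.616, 0.425 and 0.422. Without the 2 farthest libraries r was 0.634 for xbp-1, 0.415 for crt-1 and 0.407 for hsp-3. With library totals it was 0.389, 0.276 and 0.321. For ire-1, pek-1, atf-6 and sel-1 r was -0.19 to 0.20 with muscle and 0.13 to 0.54 with the vitellogenins. hsp-3 and crt-1 also had r = -0.787 and -0.803 with the log2 TMM factor itself, which were -0.26 and -0.17 with library totals. xbp-1 had r = -0.750 with this factor and hsp-4 had -0.611, and 0.165 and 0.0965 with library totals. For ire-1 and pek-1 the values were 0.389 and 0.415, and for sel-1 and atf-6 0.00966 and 0.0180. With library totals they were 0.778 for ire-1, 0.771 for pek-1, 0.687 for sel-1 and 0.658 for atf-6.

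The marker lists differed between the diets. The 6 vitellogenins summed to 26989 to 52172 CPM in torY and 24663 to 57330 in yccU, against 75427 to 100212 in BW25113, and 0 of 6 were called in either mutant. The 12 oocyte and eggshell markers summed to 5346 to 9561 CPM in torY and 5041 to 12285 in yccU, against 14928 to 19586 in BW25113. In torY 2 of these 12 fell, egg-2 and chs-1, with a list median of -1.23. No vitellogenin, oocyte or eggshell marker was at 0. The 14 molting markers summed to 268 to 637 CPM in torY and 102 to 542 in yccU, against 87.9 to 225 in BW25113, and 7 of 14 rose in torY and 3 of 14 in yccU. The 3 with the lowest p in both mutants were grl-5, grl-15 and qua-1. The 11 sperm markers summed to 1894 to 3027 CPM in torY and 1661 to 2324 in yccU, against 303.8 to 532 in BW25113, and 4 of 11 rose in torY and 1 of 11 in yccU. The 8 embryo markers summed to 44.8 to 72.7 CPM in torY and 42.6 to 96.5 in yccU, against 127 to 184 in BW25113, and 4 of 8 fell in torY and 1 of 8 in yccU. Of 8 intestine, 5 body wall muscle and 8 neuron markers, 0 were called in either mutant. The intestine markers summed to 1704 to 2791 CPM in torY and 1615 to 1878 in yccU, against 1263 to 1321 in BW25113, with 8 of 8 log2 fold changes positive in both mutants, the opposite direction to the vitellogenins. The muscle markers summed to 6893 to 13126 CPM in torY and 7171 to 7686 in yccU, against 5444 to 7711 in BW25113. The neuron markers summed to 244 to 327 CPM in torY and 234.9 to 270.3 in yccU, against 285 to 317 in BW25113. The part of these markers in the members' values was not tested.

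A fit with the oocyte and eggshell marker level as a covariate, chosen after seeing the data, gave other calls in torY. It called 3 of 8 members there, against 11.1% of all genes tested, and the median log2 fold change of all genes was 0.11. There hsp-3 had a log2 fold change of 1.19 (adjusted p = 0.0326), crt-1 of 0.87 (adjusted p = 0.0405) and xbp-1 of 0.69 (adjusted p = 0.0437) by edgeR's quasi-likelihood test. ire-1 was -0.99 (adjusted p = 0.0901) and hsp-4 was 0.22 (adjusted p = 0.585), a change of sign. Among the mutants the same fit called 2 of 8 members, hsp-3 (adjusted p = 0.0316) and crt-1 (adjusted p = 0.0293), against 6.33% of all genes. The covariate differs between the diets compared, so its effect and that of the diet cannot be told apart.

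For each member, the 3 genes with the most similar pattern over the 33 libraries were found among 4925 genes whose mean level reached 5 CPM and a symbol of letters and a number. hsp-3 was most like crt-1 (r = 0.963), the transporter gene ent-2 (0.960) and the protein disulfide isomerase gene pdi-3 (0.956). hsp-4 was most like the proteasome gene rpt-2 (0.966), the ubiquitin-activating enzyme gene uba-1 (0.958) and atln-1, which encodes the ER membrane GTPase atlastin (0.945). xbp-1 was most like pptr-1 (0.951), gbf-1 (0.946) and atln-1 (0.942). crt-1 was most like hsp-3, bam-2 (0.948) and glt-1 (0.934).

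Among the sensors, ire-1 was most like cul-5 (r = 0.970), akt-1 (0.970) and vps-54 (0.961), and pek-1 was most like dnc-1 (0.933), sec-6 (0.918) and uso-1 (0.913). atf-6 was most like chd-3 (0.900), set-19 (0.896) and swan-2 (0.892). sel-1 was most like nsf-1 (0.962), mon-2 (0.959) and exoc-8 (0.952). The likeness is of log2 CPM only and was chosen as the highest of many, so no p is given.

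Other genes of the ER were looked at by lists in torY and yccU. Of 16 other ER chaperones and folding enzymes, 2 rose, 0 fell and 14 were not called in torY, and none was called in yccU. Over all genes 9.66% were called higher in torY, so 2 of 16 is close to that share, and 2.62% were called in yccU. fkb-3, a peptidyl-prolyl isomerase gene, stood at 25.4 ± 5.46 CPM in torY against 8.48 ± 1.48 CPM in BW25113 (SD, n = 3 each). Its log2 fold change was 1.58 (SE 0.481, adjusted p = 0.0333 by edgeR's quasi-likelihood test). uggt-2, a glucosyltransferase gene of glycoprotein quality control, had 8, 16 and 13 counts in torY and 1, 0 and 1 counts in BW25113. Scaled by library size the ratio of these counts was 15.5, with an exact 95% interval of 3.99 to 132 that covers counting error only, and the adjusted p by the same test was 0.0355. The median of the 16 was -0.38 in torY and -0.09 in yccU, and with library totals -0.15 and 0.20, a change of sign in yccU. Without any 1 of the 3 BW25113 libraries, 0 of 16 were called.

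Of 19 other genes of ER-associated degradation, 0 rose, 1 fell and 18 were not called in torY. Over all genes 5.26% were called lower there, and 1 of 19 is close to that share. The 1 that fell was ufd-2, a ubiquitin chain elongation factor, at 20.2 ± 1.49 CPM in torY against 41.4 ± 9.86 CPM in BW25113 (SD, n = 3 each). Its log2 fold change was -1.03 (SE 0.314, adjusted p = 0.0334 by edgeR). The list had 18 of 19 values negative and a median of -0.52 in torY, and 17 of 19 negative and a median of -0.32 in yccU. With library totals 16 of 19 were negative in torY with a median of -0.30, ufd-2 was not called, and in yccU 11 of 19 were negative with a median of -0.03. Without BW25113 replicate 2 or 3, or without torY replicate 1 or 3, 0 of 19 were called.

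The other lists of the secretory pathway held no calls in either mutant. They were 19 genes of translocation, signal peptide removal and N-glycosylation (median -0.37 in torY and -0.36 in yccU), 9 genes of ER exit (-0.27 and -0.38), 4 genes of ER calcium (0.16 and 0.12) and 5 other stress signalling genes (-0.30 and -0.25). With library totals these medians were -0.14, -0.05, 0.40 and -0.07 in torY. In yccU they were -0.07, -0.11, 0.42 and 0.02.

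The abu genes were the exception. This family was named for genes activated when the unfolded protein response is blocked, and encodes proteins with glutamine- and asparagine-rich repeats. Of 12 tested, 10 rose and 2 were not called in torY, with a median log2 fold change of 3.40, and 2 rose and 10 were not called in yccU, with a median of 2.96. In torY, abu-12 was higher by 3.65 in log2 (SE 0.826, adjusted p = 0.0130) and abu-13 by 3.32 (SE 0.754, adjusted p = 0.0130) by edgeR's quasi-likelihood test. abu-2 had 30, 36 and 39 counts in torY and 2, 0 and 1 counts in BW25113, a scaled ratio of 29.3 with an exact 95% counting interval of 9.74 to 144 and an adjusted p of 0.0132 by that test. In yccU, abu-13 was higher by 3.01 in log2 (SE 0.745, adjusted p = 0.0349) and abu-12 by 3.11 (SE 0.809, adjusted p = 0.0400) by the same test. The 12 genes summed to 531 to 1037 CPM in torY and 213 to 706 in yccU, against 56.3 to 140 in BW25113, with no overlap. In the other 8 mutants no abu gene was called by edgeR's quasi-likelihood test. In yjgU, however, 12 of 12 had positive log2 fold changes with a median of 1.78, 6 of 12 had an unadjusted p under 0.05, 10 of 12 lay wholly above BW25113, and the 12 summed to 168 to 435 CPM. Over all genes in yjgU, 6.49% had an unadjusted p under 0.05 and 15.1% lay wholly above BW25113. In ycgJ the median was 1.55 and in purH 1.24, again with 12 of 12 positive and 1 of 12 in each with an unadjusted p under 0.05, and the sums of 103 to 359 CPM in ycgJ and 40.9 to 417 CPM in purH overlapped BW25113. In the other 5 mutants the medians lay between -0.62 and 0.74, and 0 of 12 had an unadjusted p under 0.05.

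These genes are similar copies, so their counts may be shared between members. With the molting marker level as a covariate, 0 of 12 abu genes were called in torY and 0 in yccU, and over all genes 0 were called in either. In torY, 5 of 12 were called without BW25113 replicate 1, 0 without replicate 2 and 4 without replicate 3, and 4 without torY replicate 1 and 3 without replicate 3. In yccU the number was 10 without yccU replicate 2 and 0 without any other of its 6 libraries. The part of molting in these values was not tested further.

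**Figure D5:**
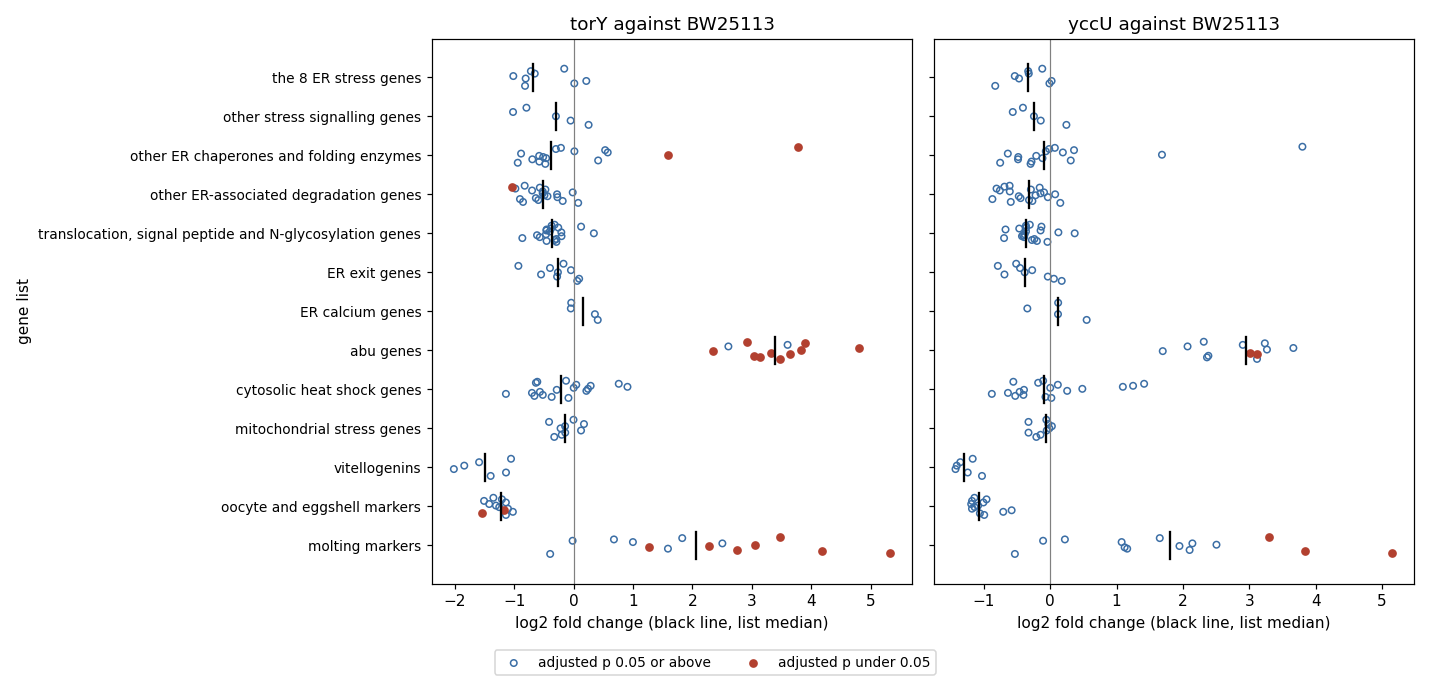
Log2 fold change of the genes of each list in torY and in yccU against BW25113, with each point a gene, filled red where the adjusted p is under 0.05, and a black line at the list median. The 8 ER stress genes have medians of -0.69 in torY and -0.33 in yccU, and the abu genes of 3.40 and 2.96.

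In the other 8 mutants the members gave no calls, and the adjusted p was at least 0.572 by edgeR's quasi-likelihood test. Of these 64 log2 fold changes, 14 were positive and 50 negative, from -0.72 to 0.35, and none had an unadjusted p under 0.05. The medians of the 8 members were -0.26 in crl, -0.09 in iaaA, -0.51 in purH, -0.30 in ycdC, -0.21 in ycgJ, -0.36 in yghZ, -0.24 in yjgU and -0.12 in ypdF. Single libraries moved these medians, and that of purH was -0.07 without purH replicate 1. With 1 library of either group left out, an alternative added after seeing the data, the medians ranged from -0.55 to -0.08 in crl, -0.21 to 0.05 in iaaA, -0.70 to -0.07 in purH, -0.56 to -0.10 in ycdC and -0.40 to -0.09 in ycgJ. They ranged from -0.63 to -0.08 in yghZ, -0.38 to -0.08 in yjgU and -0.31 to 0.07 in ypdF. Over all genes the medians in these mutants lay between -0.08 and 0.18. With the mean of the 10 mutants against BW25113, no member was called (smallest adjusted p = 0.539, atf-6), and no gene was called among all genes tested, of which 9.00% had an unadjusted p under 0.05.

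Libraries of 1 diet could differ more than diets. With TMM, purH replicate 1 held the lowest of the 33 values for hsp-3 (119 CPM), hsp-4 (60.6), xbp-1 (64.2) and crt-1 (228), while ire-1 stood there at 29.6 CPM and pek-1 at 9.50 CPM, the 27th and 29th from the lowest. On the total-count scale it was again the lowest for hsp-3, xbp-1 and crt-1, the 3rd from the lowest for hsp-4, and the highest for ire-1 and pek-1. Its 6 vitellogenins summed to 6469 CPM, against 43245 and 78357 in the other two purH libraries, and its body wall muscle markers to 603 CPM, against 5847 and 7680. In CPM over the 33 libraries the highest value exceeded the lowest by 7.88-fold for hsp-3, 5.60-fold for crt-1, 5.11-fold for hsp-4, 4.49-fold for pek-1, 4.18-fold for xbp-1, 3.52-fold for atf-6, 3.31-fold for ire-1 and 2.76-fold for sel-1. Without purH replicate 1 in the fit, no member was called in any other mutant.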

How the data were processed

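RNA-seq was made from whole N2 adults, extracted with Trizol and sequenced on a DNBSEQ instrument, per the labels' protocols. The authors deposited expected counts and TPM (a per-length value scaled to a fixed sum) for each library, as column names in the file headers show. The submitters' processing notes name HISAT, StringTie, Bowtie2 and WBcel235 without roles. The sources used here give neither the counting tool nor its use of strand. Between 7.78% and 10.0% of the expected counts per library were not whole, and all were rounded. Genes were filtered with filterByExpr, scaled by TMM and fitted by diet over 33 libraries with edgeR 4.0.16 (quasi-likelihood test, SE from the fold change and F). Alternatives used DESeq2 1.42.0 and limma 3.58.1. BiP ratios were compared by exact permutation. No replicate pair agreed within sampling noise (smallest chi-square per degree of freedom 15.7 over 33 pairs). The main tests paired no libraries by replicate number in any mutant. Only in yghZ were all 3 correlations of deviations from diet means with same-numbered BW25113 libraries over 0.1, at 0.311 to 0.389. A possible pairing there was left out of the yghZ p-values. The 8 members and 17 other lists were chosen with earlier results of these data known. From other lists, called genes were named, at most 3 by lowest p. Coordinates are from the Ensembl annotation of WBcel235, in which all 8 members matched.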

Additional observations from a re-analysis of the deposited data

How the results depend on the processing

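Depth was similar in all libraries, and 3 libraries per diet limit the precision: the SE of a member's log2 fold change was 0.323 to 0.461. The count of members called stayed at 0 in every mutant under every alternative run, except in torY, where it was 1 with RLE size factors, 1 with DESeq2, 1 with the 6 libraries alone and 3 with the oocyte and eggshell covariate. Among the mutants it was 2 with that covariate. The shares of all genes called with RLE size factors, DESeq2 and the 6 libraries alone are not given here, so the counts cannot be set against them. Of the recomputed log2 fold changes of members, 1112 kept their direction and side of the threshold, 5 passed it with the same sign and 155 changed sign. Of the values that changed sign, 1 also passed the threshold, xbp-1 in torY with the oocyte and eggshell covariate. The cause of each change of sign was not tested beyond the shift that another scaling gives by construction. The main tests paired no libraries by number, yghZ included, where all 3 same-numbered correlations were over 0.1. Outside yghZ, at least 1 of the 3 same-numbered correlations was not over 0.1. In yccU they were 0.0416, 0.238 and 0.114, and whether its numbers mark a shared origin is not known. Of 30 mutant libraries, 14 were closest to the BW25113 library of the same number, which does not settle it. With the replicate block the sign of no member changed and ire-1 in torY had an adjusted p of 0.0533, while the called genes numbered 2670 in torY and 1169 in yccU, against 2193 and 385.

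With library totals in place of TMM, the values that changed sign were hsp-4 0.14, ire-1 0.18, xbp-1 0.21, pek-1 0.12, atf-6 0.0037 and sel-1 0.050 in crl, hsp-3 0.084, hsp-4 0.20, xbp-1 0.27 and atf-6 0.26 in iaaA, atf-6 0.026 and sel-1 0.45 in purH, xbp-1 0.086 in torY, xbp-1 0.17 and crt-1 0.27 in yccU, ire-1 0.54, xbp-1 0.15, atf-6 0.32 and sel-1 0.25 in ycdC, hsp-3 0.033, hsp-4 0.094, xbp-1 0.39 and atf-6 0.29 in ycgJ, hsp-3 0.036, hsp-4 0.0014, xbp-1 0.11, pek-1 0.48, atf-6 0.18 and sel-1 0.28 in yghZ, crt-1 0.0068 in yjgU, hsp-3 0.16, hsp-4 0.085, xbp-1 0.076, atf-6 0.23 and crt-1 0.015 in ypdF. With limma on log2(TPM + 1), they were hsp-4 0.054, ire-1 0.066, xbp-1 0.12 and pek-1 0.018 in crl, hsp-3 0.18, hsp-4 0.27, xbp-1 0.33, atf-6 0.23 and crt-1 0.016 in iaaA, sel-1 0.24 in purH, xbp-1 0.0063 in torY, xbp-1 0.066 and crt-1 0.17 in yccU, ire-1 0.34, xbp-1 0.063, atf-6 0.16 and sel-1 0.14 in ycdC, hsp-3 0.097, hsp-4 0.091, xbp-1 0.41 and atf-6 0.19 in ycgJ, xbp-1 0.023, pek-1 0.23, atf-6 0.099 and sel-1 0.21 in yghZ, hsp-3 0.24, hsp-4 0.070, xbp-1 0.096, atf-6 0.14 and crt-1 0.049 in ypdF. With the oocyte and eggshell covariate (chosen after seeing the data), they were hsp-4 0.074 and xbp-1 0.088 in crl, hsp-4 0.085 and xbp-1 0.11 in iaaA, hsp-3 0.073, hsp-4 0.068, xbp-1 0.084 and sel-1 0.16 in purH, hsp-4 0.22 and xbp-1 0.69 in torY, hsp-4 0.43, xbp-1 0.65 and crt-1 0.78 in yccU, xbp-1 0.028 in ycdC, hsp-3 0.0046, hsp-4 0.021 and xbp-1 0.27 in ycgJ, hsp-3 0.020 in yghZ, xbp-1 0.036 and crt-1 0.17 in yjgU, hsp-3 0.13 and hsp-4 0.011 in ypdF. With the molting marker covariate, they were xbp-1 0.10 in torY, xbp-1 0.081 and crt-1 0.044 in yccU, pek-1 -0.0021 in ycdC. With no filter on low counts, they were xbp-1 0.017 in iaaA, crt-1 -0.064 in torY, hsp-3 -0.020 in yccU, pek-1 0.0085 in yghZ. With RLE size factors, they were crt-1 0.016 in yccU. With DESeq2, they were crt-1 0.016 in yccU. With 6 libraries fitted alone, they were crt-1 0.095 in yccU. Without purH replicate 1 in the fit of all libraries, they were crt-1 0.041 in yccU, ire-1 0.011 in ycdC, pek-1 0.019 in yghZ.

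With 1 library left out, the ranges of members that changed sign were hsp-4 -0.43 to 0.087, ire-1 -0.61 to 0.090 and xbp-1 -0.37 to 0.099 in crl, hsp-4 -0.29 to 0.0088, ire-1 -0.030 to 0.44, xbp-1 -0.28 to 0.042, atf-6 -0.21 to 0.084 and sel-1 -0.053 to 0.29 in iaaA, ire-1 -0.090 to 0.34 and sel-1 -0.28 to 0.020 in purH, hsp-3 -0.085 to 0.52 and crt-1 -0.20 to 0.24 in torY, hsp-3 -0.15 to 0.20 and crt-1 -0.12 to 0.12 in yccU. In the other 5 mutants they were ire-1 -0.41 to 0.19, xbp-1 -0.79 to 0.0030 and pek-1 -0.39 to 0.29 in ycdC, ire-1 -0.11 to 0.44, pek-1 -0.013 to 0.75 and sel-1 -0.28 to 0.27 in ycgJ, ire-1 -0.14 to 0.29, pek-1 -0.39 to 0.069 and sel-1 -0.42 to 0.017 in yghZ, hsp-3 -0.12 to 0.23, pek-1 -0.44 to 0.17 and crt-1 -0.19 to 0.038 in yjgU, hsp-3 -0.30 to 0.052, pek-1 -0.034 to 0.37, atf-6 -0.61 to 0.14 and sel-1 -0.088 to 0.27 in ypdF.

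The difference from BW25113 in the log2 ratio of hsp-4 to hsp-3 changed sign when 1 library was left out in 6 mutants, with ranges of -0.020 to 0.16 in iaaA, -0.093 to 0.12 in purH, -0.079 to 0.16 in ycdC, -0.18 to 0.10 in ycgJ, -0.14 to 0.0022 in yghZ and -0.40 to 0.12 in ypdF.

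The counts of the other lists moved more, and for most alternatives no share of all genes called is given beside them. In torY the chaperones called higher were 1 with library totals, 1 with 6 libraries alone, 0 with limma on TPM, 0 with the molting covariate and 4 with the oocyte covariate, and 0 to 1 with 1 library left out. The degradation genes called lower were 0 with library totals, limma on TPM or the molting covariate and 0 to 1 with 1 library left out, and 1 was called higher with the oocyte covariate. That covariate also gave 3 ER exit genes and 2 ER calcium genes called higher, and 1 other stress signalling gene called in each direction, where leaving out 1 library gave 0 to 1 called lower. The abu genes called in torY were 0 with the molting covariate and 0 to 10 with 1 library left out. In yccU they were 0 with library totals, 0 with either covariate, 4 with limma on TPM or the replicate block, 8 without purH replicate 1, 10 with DESeq2, 10 with 6 libraries alone and 0 to 10 with 1 library left out. Chaperones called higher in yccU were 2 with DESeq2 or the replicate block, 1 without purH replicate 1 in the fit, 1 with 6 libraries alone and 0 to 2 with 1 library left out.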

Other observations

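Stress genes outside the ER were also read in torY and yccU. Of 18 cytosolic heat shock genes, 0 were called in either mutant, with median log2 fold changes of -0.21 in torY and -0.09 in yccU. Of 9 mitochondrial stress genes, 0 were called, with medians of -0.15 and -0.06. With library totals the medians were 0.04 and 0.12 for the cytosolic list, and 0.12 and 0.20 for the mitochondrial list. Library totals moved the median of all genes alike, to 0.28 in torY and in yccU, against 0.01 and -0.01 with TMM, and the list medians lay below the all-gene median under both scalings.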
